A study of Homo sapiens with 13 samples.

Results

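Silencing of the promoter shared by PRR11 and SKA2 was read in 1 library of A549 cells, a human lung adenocarcinoma line, set against 1 library of the same line with a mock guide. The comparison covers 15003 of the 59653 gene symbols in the table of this pair. A gene was taken as measured when it had at least 20 reads over both libraries and a level of at least 1 CPM (counts scaled to the library total after its adjustment by TMM) in either. The study asked how PRR11, SKA2 and the microRNAs within SKA2 affect transcripts and the PI3K-AKT pathway, and sequenced poly(A) RNA from 13 A549 libraries, 1 per group. The labels give the treated group as CRISPRi_PRR11+SKA2 promoter-sgRNA#1, a stable line made by CRISPR interference whose PRR11/SKA2 promoter activity was inhibited, and the control as CRISPRi_Mock sgRNA. Both lines were grown in DMEM/F12 with 10% FBS at 37 °C, and the labels name neither the sequence of the guide nor the repressor protein. The treated line carries 1 guide and each group is 1 library, so guide, line, culture and library cannot be told apart and no difference has a replicate check. Where levels of other libraries are given, they come from LV-vector-PS and LV-vector-34, 2 lentiviral vector controls, and CRISPRd_Control, the control of the microRNA knockouts, or from the 8 treated libraries of those sets.

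CRISPR interference brings a catalytically dead Cas9, usually fused to a repressor domain, to a promoter by a guide RNA, so that transcription is blocked without a break in the DNA. A guide between a pair of genes that start back to back can silence both. PRR11 is a proline-rich protein that peaks late in the cell cycle and was described in lung cancer. SKA2 belongs to the SKA complex (spindle and kinetochore associated), which couples kinetochores, the protein plates on centromeres, to shrinking microtubules during mitosis. An intact SKA complex lets chromosomes separate on time, and cells without it linger in metaphase.

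On chromosome 17 in GRCh38, SKA2 runs from 59109951 to 59155269 on the minus strand and PRR11 from 59155499 to 59204705 on the plus strand (GENCODE release 29), which leaves 229 bases between the annotated starts. RefSeq places the starts elsewhere, at 59155186 for SKA2 and 59155746 for PRR11. The RefSeq promoter window of SKA2 (GRCh38.p14) holds 167 of the 229 bases between the GENCODE starts, 59155270 to 59155436. The letters given next were counted in these 167 bases only. These bases are 53.3% G or C and contain the CCAAT box, which the factor NF-Y binds, at 3 places. All 3 read ATTGG on the strand of PRR11, and they are printed here, in capitals within 30 bases of the plus strand, because they mark the stretch that the guide is labelled to silence.
chr17:59155286-59155315: cggctcccgcccATTGGagactgggtaacg
chr17:59155361-59155390: cgccgcaggaggATTGGctgctgtgcaaat
chr17:59155389-59155418: atttttttttccATTGGctgccccctcctc
The same bases held 0 matches to TATAAA, 0 to the cell cycle element CHR (TTTGAA or TTCGAA) and 0 to the E2F site (TTTGGCGC or TTTCCCGC), each searched on both strands.

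The introns of SKA2 also hold 2 microRNA genes, whose mature forms lie at 59151149 to 59151171 (miR-301a) and 59137787 to 59137809 (miR-454) on the minus strand of chromosome 17 in RefSeq's GRCh38.p14. Their mature sequences share the seed (bases 2 to 8, in capitals), which is the stretch that pairs with target messages, so both can bind the same messages.
hsa-miR-301a-3p: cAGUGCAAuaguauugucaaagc
hsa-miR-454-3p: uAGUGCAAuauugcuuauagggu
The loci MIR301A and MIR454 had 0 counts in both libraries, and mature microRNAs have no poly(A) tail, so their loss with the silenced host gene was not readable here.

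Both targeted genes were nearly silent. PRR11 had 2029 counts in the mock library and 14 in the promoter-guide library, or 98.8 and 0.635 CPM. That level was 156-fold lower, with an exact 95% counting interval of 92.5 to 285. SKA2 had 1594 counts and 5 counts, or 77.6 and 0.227 CPM, 342-fold lower (146 to 1055). On a scale shared by the 3 deposited tables, on which CPM differ slightly from those within a table, the other 12 libraries held 97.6 to 152 CPM of PRR11 and 47.7 to 87.9 CPM of SKA2, so the promoter-guide library lay below all of them for both genes, which held for 24.5% of the 12811 measured genes listed in all tables.

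Another gene stood apart in the opposite direction. ZNF10 is a zinc finger protein whose KRAB domain is the repressor commonly fused to dead Cas9 in CRISPR interference. It had 153 counts in the mock library and 2097 in the promoter-guide library, or 7.45 and 95.1 CPM, 12.8-fold higher (10.8 to 15.1). On the shared scale the promoter-guide library held 111 CPM and the mock library 8.44 CPM, while the other 11 libraries held 0.946 to 2.77 CPM. Both lines of the interference pair thus lay above all others, and the promoter-guide line far above the mock line. Whether these reads come from the endogenous gene or from an introduced repressor was not tested, and the part of that gap in the results below was not tested.

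Some of the surrounding genes were called. Within 1 Mb of the midpoint between the starts, 84 genes were in the table and 24 were measured. Of these, 1 was higher and 5 were lower at least 2-fold, PRR11 and SKA2 included, against 9.43% higher and 5.97% lower over all measured genes. Without the 2 targets, 1 of 22 was higher (4.55%) and 3 of 22 lower (13.6%). The nearest measured coding genes on either side were not called. TRIM37, a centrosome-related ubiquitin ligase, stood at 53.6 and 44.4 CPM, SMG8 of the nonsense-mediated decay kinase complex at 34.1 and 32.5 CPM and GDPD1 at 1.51 and 3.31 CPM. The CPM of GDPD1 had a ratio of 2.19 (1.42 to 3.46), while its log2 ratio of CPM + 0.5, 0.92, remained under the size rule. The kinase RPS6KB1, an output of mTOR, stood at 65.1 and 46.3 CPM, a log2 difference of -0.49. YPEL2, at 176 kb, was the higher one at 4.92 and 16.8 CPM. The lower ones beyond the targets were RNF43 at 31.8 and 9.30 CPM, AC004687.2 at 25.1 and 6.85 CPM and the noncoding AC091271.1 at 1.66 and 0.544 CPM. AC004687.2 covers RNF43 on the same strand, so their reads may be shared.

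Across all measured genes 1415 (9.43%) were higher and 896 (5.97%) lower, 15.4% in either direction, and the median log2 difference was -0.04. The size rule for a call was a log2 ratio of CPM + 0.5 of 1 or more in either direction, which is 2-fold, with a counting interval that excluded equality. A gene under 1 CPM in the mock library was measured only if the promoter-guide library reached 1 CPM, so it could not be called lower. The reverse holds for genes under 1 CPM in the promoter-guide library. Differences of at least 4-fold were found for 269 higher and 95 lower genes, and of at least 16-fold for 9 and 4. The called genes split unevenly by abundance. Among genes whose higher library held 2 to 5 CPM, 18.3% were higher and 5.43% lower, whereas among those at 100 to 500 CPM 5.99% were higher and 7.33% lower. By chromosome, 5.23 to 11.6% of measured protein-coding genes were higher and 4.28 to 8.60% lower.

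**Figure D1:**
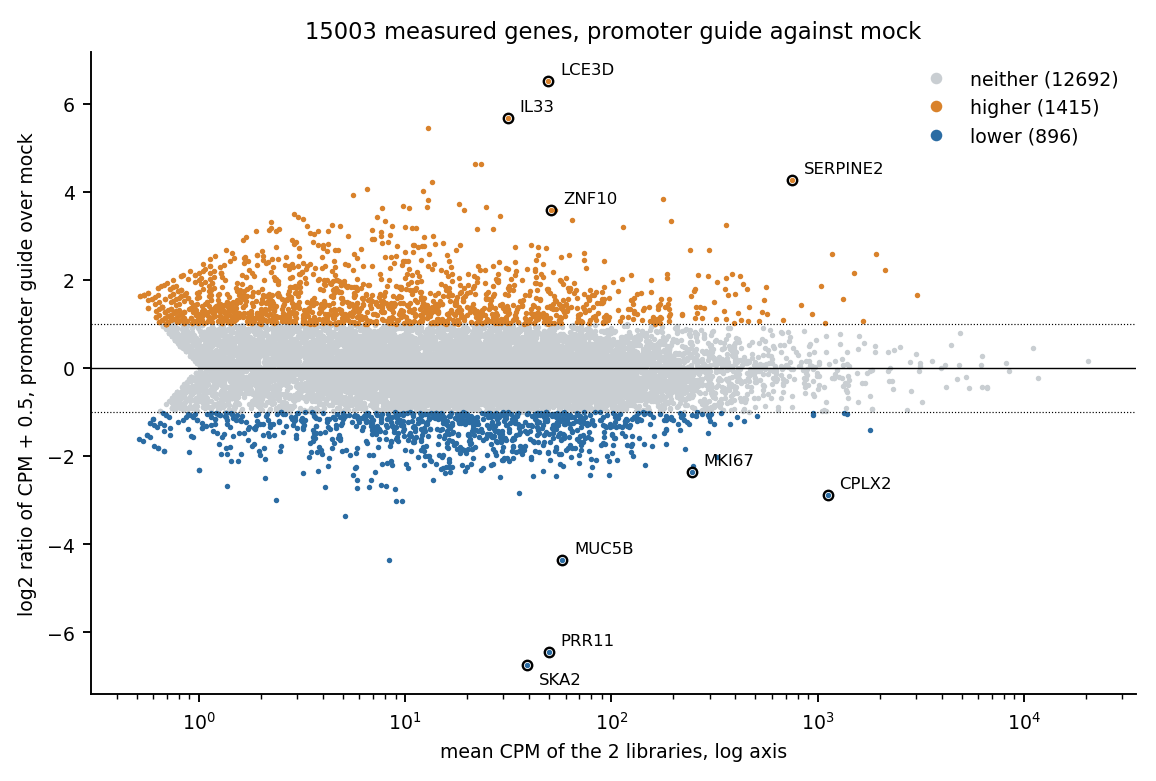
Log2 ratio of CPM + 0.5, promoter guide over mock, against the mean CPM of both libraries on a log axis; each point is 1 of 15003 measured genes, with 1415 higher in orange and 896 lower in blue. Dotted lines mark 2-fold, and PRR11 and SKA2 lie lowest, at -6.45 and -6.75.

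These counts need the spread between control lines beside them. By the same rule on the shared scale, the promoter-guide library differed from the mock in 15.7% of measured genes, and the mock itself differed from the other 3 controls in 11, 13.9 and 13.6%. The promoter-guide library differed from those 3 in 21.7, 25.1 and 24.9%, and they differed among themselves in 4.21 to 6.26%. The mock library thus stood apart from the other controls as well, though less far than the promoter-guide library did. The other sets come from separate tables and are not replicates of the mock, and what sets the mock apart was not tested. A stricter reading was therefore added. Of 12811 measured genes listed in all tables, 659 (5.14%) were at least 2-fold above the highest of the 4 controls in the promoter-guide library and 393 (3.07%) at least 2-fold below the lowest. Among called genes listed in all tables, 630 of 1161 higher (54.3%) and 392 of 788 lower (49.7%) met this reading. It is given below as the number beyond all 4 controls, at the end for every list with 4 or more members called in a direction, and levels in controls are ranges on the shared scale. Medians in brackets are of log2 ratios over the measured members of a list, against -0.04 over all genes. In what follows, paired values give the mock library first and the promoter-guide library second.

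The partners of SKA2 at the kinetochore were lower with it. The list of the SKA complex and outer kinetochore had 23 of 28 measured members lower and 0 higher (all genes 5.97% and 9.43%), with a median log2 of -1.47; 14 of the 23 lay at least 2-fold below all 4 controls. The other subunits of the complex, SKA1 and SKA3, stood at 19.3 and 5.17 CPM and at 24.6 and 5.85 CPM. In the 4 controls SKA1 held 18.5 to 22.9 CPM and SKA3 24 to 34.1 CPM, so the promoter-guide library lay below the full range for both. The NDC80 complex, which binds microtubules beside SKA, had all 4 subunits lower: NDC80 at 16.1 and 5.21 CPM, NUF2 at 33.4 and 8.93 CPM, SPC24 at 19.7 and 4.94 CPM and SPC25 at 23.6 and 8.39 CPM. On the shared scale NDC80 held 6.08 CPM in the promoter-guide library and 10.3 to 18.2 CPM in the 4 controls, the mock being highest. It thus lay less than 2-fold below the lowest control, while NUF2, SPC24 and SPC25 lay at least 2-fold below all 4. KNL1, the scaffold of the checkpoint proteins, stood at 25.5 and 6.89 CPM. Of the MIS12 complex, which anchors the others, DSN1 was lower at 44.2 and 17.8 CPM, while MIS12 (26.9 and 16.1 CPM), NSL1 (36.9 and 24.7 CPM) and PMF1 (41.3 and 26.5 CPM) were not called. DSN1 too lay less than 2-fold below the lowest control, at 20.7 CPM against 33.3 to 50.1 CPM on the shared scale. The centromeric histone CENPA stood at 42.2 and 11.4 CPM, its chaperone HJURP at 185 and 54.4 CPM and the large fibrous corona protein CENPF at 205 and 50.5 CPM. SKA1 and SKA3 were therefore about as much lower as their neighbours in the kinetochore, with log2 differences of -1.81 and -1.98, and the rest of the called members ran from -1.01 (MIS18A) to -2.01 (CENPF).

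Mitosis genes outside the kinetochore were lower too. Over all mitosis lists, the kinetochore included, 93 of 122 measured members were lower and 1 higher, 64 of the 93 beyond all 4 controls. The entry kinases and cyclins had 16 of 19 (median -1.56) lower, 14 of them beyond all 4 controls. CDK1, the kinase that drives entry, stood at 129.5 and 30.6 CPM, and PLK1, which acts at centrosomes and kinetochores, at 197 and 51.6 CPM. MYBL2, a regulator that switches such genes on, stood at 158 and 35.9 CPM, and AURKB, the kinase that corrects faulty attachments, at 78.2 and 20.2 CPM. Spindle motors and microtubule proteins had 16 of 20 (median -1.60) lower, among them KIF11, the motor that pushes spindle poles apart, at 134 and 27.8 CPM, and the plus-end motor KIF18B at 70.5 and 12.5 CPM. Cytokinesis was the list without an exception, with 15 of 15 (median -1.55) lower, 9 of them beyond all 4 controls; the scaffold ANLN stood at 194 and 58.1 CPM and the RHOA activator ECT2 at 193 and 55.8 CPM. With LV-vector-PS, LV-vector-34 or CRISPRd_Control in place of the mock, 9, 11 and 12 members of that list were lower. Cohesin and condensin had 14 of 21 (median -1.32) lower, 9 of them beyond all 4 controls, with the condensin subunit NCAPH at 78.1 and 14.9 CPM and the cohesin protector SGO1 at 21.9 and 4.72 CPM.

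The checkpoint and anaphase list was the least uniform of the mitosis lists, with 9 of 19 lower, 1 higher and a median of -0.65. The checkpoint kinases BUB1B and TTK stood at 66.6 and 15.4 CPM and 31.4 and 7.89 CPM, and MAD2L1, the inhibitor of the anaphase-promoting complex, at 72.1 and 22.1 CPM. On the shared scale MAD2L1 held 25.7 CPM in the promoter-guide library and 81.8 CPM in the mock. The lowest control held 35.4 CPM of MAD2L1, less than 2-fold above the promoter-guide library. BUB3 was not called, at 186 and 121 CPM, and neither were the structural subunits of the anaphase-promoting complex ANAPC7 (89.2 and 71.1 CPM) and CDC27 (129 and 81.6 CPM). MAD1L1, the partner of MAD2L1, was the member called higher, at 4.92 and 12.5 CPM. Its range over the 4 controls was 5.57 to 31.7 CPM, so its promoter-guide level lay within it and the mock level at its lower end. The lower members thus included the kinases and inhibitors whose messages cycle, while the named subunits of the complex itself stayed under the 2-fold size. The proliferation marker MKI67 stood at 412 and 79.4 CPM and TOP2A, which untangles chromosomes, at 522 and 128 CPM.

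DNA replication genes were lower to a similar degree. Of 73 measured members, 44 were lower and 0 higher, with a median of -1.29. Origin licensing, the loading of the MCM helicase, had 12 of 16 (median -1.76) lower with 9 of them beyond all 4 controls. MCM10 stood at 63.1 and 8.39 CPM, ORC1, the cycling subunit of the origin recognition complex, at 33 and 6.08 CPM, the loader CDC6 at 96.5 and 20.3 CPM and the helicase subunit MCM2 at 137 and 31.8 CPM. On the shared scale the mock was the highest of the 12 other libraries for MCM10, ORC1 and CDC6, at 71.6, 37.4 and 109 CPM. Differences from the mock are therefore the largest for these genes. The lowest control held 44, 22 and 53.9 CPM, still at least 2-fold above the promoter-guide library. ORC4, a subunit of the same complex as ORC1, stood at 45.9 and 41.5 CPM and was not called. Helicase activation and polymerases had 24 of 32 (median -1.54) lower; CDC45, which turns the loaded helicase on, stood at 39.3 and 7.48 CPM and the primase PRIM1 at 31.3 and 6.39 CPM. The sliding clamp PCNA, at 396 and 212 CPM, remained just under the size rule with a log2 of -0.89. Nucleotide supply was less uniform at 8 of 25 (median -0.90) lower, 1 of them beyond all 4 controls, including RRM2 of ribonucleotide reductase at 283 and 85.1 CPM; with the other controls in place of the mock, in the order given above, only 1, 4 and 6 members were lower. Chaperones and maintenance methylation had 15 of 22 (median -1.496) lower, among them the histone chaperone CHAF1A at 57.4 and 15.6 CPM and the maintenance methylation factor UHRF1 at 95.1 and 25.8 CPM, while the chromatin protein HMGB1 stood at 401 and 205 CPM and was not called. On the shared scale UHRF1 held 30.1 CPM in the promoter-guide library and 108 CPM in the mock. The lowest control held 52.5 CPM of UHRF1, less than 2-fold above the promoter-guide library.

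Regulators at the G1 to S step were called in both directions. E2F factors turn replication genes on once the pocket proteins release them, and 4 of 13 measured (median -0.57) members of that list were lower. E2F1 stood at 66 and 15.8 CPM, E2F2 at 17.6 and 1.72 CPM and the late repressor E2F8 at 14.3 and 1.81 CPM. E2F2 held 13.8 to 22 CPM in the 4 controls and was the most reduced of the 3. The G1 cyclins and kinases had 4 of 13 (median -0.50) lower, and CCND1, cyclin D1, stood at 418 and 624 CPM without a call. Inhibitors and quiescence genes were higher in 6 of 14 (median 0.36), 3 of them beyond all 4 controls. CDKN1A, the inhibitor p21, stood at 203 and 708 CPM, 3.50-fold higher (3.38 to 3.62), against 139 to 229.5 CPM in the 4 controls. The antiproliferative BTG2 stood at 12.1 and 37 CPM and MXD4, an opponent of MYC, at 31.6 and 82.5 CPM. CDKN2C was lower in the same list, at 34.8 and 12.3 CPM. Neither CDKN2A nor CDKN2B, which are deleted in A549, had a count in either library.

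The 300-base RefSeq promoter windows, 250 bases before to 50 after the most upstream start, differed in letters between the replication and mitosis genes. The CHR element is the site at which the DREAM and MYBL2-FOXM1 complexes act on mitotic genes, and the E2F site is typical of replication genes. CHR letters occurred in 53 of the 77 windows of lower mitosis genes (68.8%) and in 8 of 26 windows of mitosis genes that were not called (30.8%). They occurred in 4 of 39 windows of lower replication genes (10.3%), and in 16.7% of all 27305 windows. E2F letters showed the reverse order, with 5 of 77 lower mitosis windows (6.49%), 13 of 39 lower replication windows (33.3%) and 2.31% of all windows. Among replication genes that were not called the E2F letters occurred in 6 of 25 windows (24.0%), and among mitosis genes that were not called in 6 of 26 (23.1%). The CCAAT box was common to lower genes of both kinds, at 62.3% and 53.8%, against 35.7% of all windows. It was as common in mitosis genes that were not called (65.4%), and less common in replication genes that were not called, at 9 of 25 windows (36.0%). These are counts of letters in windows, not of bound sites, and were not tested. Of the lower genes, 77 of 93 in the mitosis lists and 39 of 44 in the replication lists had a window.

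Examples drawn from windows that hold the letters follow, with CHR or E2F letters in capitals and each stretch printed on the strand of its gene. The first 3 are from mitosis genes.
KIF11, chr10:92593090-92593119: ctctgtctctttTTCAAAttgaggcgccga
BUB1B, chr15:40161034-40161063: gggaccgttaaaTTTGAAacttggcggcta
PLK1, chr16:23678848-23678877: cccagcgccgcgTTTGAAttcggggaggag
The next 3 are from replication genes.
MCM7, chr7:100101566-100101595: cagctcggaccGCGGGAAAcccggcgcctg
CDT1, chr16:88803743-88803772: ccagggcgcccGCGGGAAAtttggcgggaa
MCM6, chr2:135876515-135876544: cattggtcaggTTTGGCGCgaaatctccag
KIF11 lies on the plus strand and carries TTTGAA on the opposite strand, which reads TTCAAA here. The window of PRR11 itself, on its RefSeq start, held 1 CHR match and 3 CCAAT boxes, and that of SKA2 0 CHR matches and 5 CCAAT boxes.

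DNA repair genes that act at replication forks were mostly called lower, while those of other repair kinds were mostly below the mock level without a call. Homologous recombination and the Fanconi pathway, which mend broken and crosslinked forks, had 22 of 29 (median -1.44) lower, 16 of them beyond all 4 controls. The nuclease EXO1 stood at 49.1 and 8.39 CPM, the helicase BLM at 27.9 and 4.99 CPM, BRCA2 at 14.5 and 2.77 CPM and FANCD2 at 49.1 and 11.5 CPM. RAD51C, which lies within 1 Mb of the silenced promoter, stood at 39.1 and 22.9 CPM and RAD51D at 27.7 and 23.3 CPM, neither called. Mismatch repair, excision repair and end joining had 5 of 23 (median -0.62) lower. At telomeres, TERT, the catalytic subunit of telomerase, stood at 9.74 and 0.499 CPM and the telomere helicase RTEL1 at 23.6 and 3.63 CPM, against 13.9 to 29 CPM for RTEL1 in the 4 controls. The shelterin and telomerase list had 3 of 13 lower and its median was -0.38.

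Targets of p53, the factor that answers DNA damage and other stress, were higher in part. Of 34 measured targets, 13 were higher and 0 lower. A549 carries an intact p53 gene. Targets of arrest and feedback had 7 of 12 (median 1.13) higher, 6 of them beyond all 4 controls. MDM2, which degrades p53, stood at 95 and 241 CPM against 38.4 to 108 CPM in controls, TP53INP1 at 8.67 and 44.8 CPM and GADD45A at 44.2 and 181 CPM. GDF15, another target, stood at 94.7 and 90.8 CPM and was not called. Targets linked to death had 4 of 10 (median 0.74) higher; the death receptor FAS stood at 21.3 and 65.3 CPM and TP53I3 at 133 and 515 CPM, while the pore protein BAX stood at 127 and 179 CPM and was not called. Targets of repair and metabolism had 2 of 12 (median 0.79) higher. Outside p53 targets, the BCL2 family had 2 of 11 (median 0.18) higher, 0 of them beyond all 4 controls. The death receptors, caspases and inhibitors had 1 of 20 (median 0.19) higher. That makes 3 of 31 in all, near the share of 9.43% over all genes.

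Factors that senescent cells secrete were higher as a group of messages. In the secreted factor list 17 of 25 measured members (median 1.497) were higher and 1 lower, 12 of the higher ones beyond all 4 controls. The protease inhibitor SERPINE2 stood at 73.3 and 1429 CPM, 19.5-fold higher (18.5 to 20.5), against 43.8 to 126 CPM in the 4 controls. IGFBP7, a binding protein of insulin-like growth factors, stood at 64.3 and 415 CPM. The neutrophil chemokines CXCL1 and CXCL8 stood at 7.84 and 99.3 CPM and 11 and 118 CPM, and the cytokine IL6 at 0.292 and 5.40 CPM. CXCL1 spread over 8.88 to 54.3 CPM in the 4 controls, and the promoter-guide library lay above that range. On the shared scale CXCL1 held 116 CPM there, and a treated library of the other sets reached 147 CPM. For IL6 the promoter-guide library held 6.29 CPM, and a treated library of the other sets 7.16 CPM. SERPINE2, IGFBP7 and CXCL8 lay above all 12 other libraries. IGFBP3 (517 and 713 CPM) was not called, and the ERBB ligand AREG was lower at 56.5 and 14.8 CPM. Further chemokines had 2 of 3 measured members (median 1.64) higher and the IL-1, IL-6 and TNF families 3 of 16 (median -0.08). IL33, an alarm cytokine of epithelia, stood at 0.730 and 62.4 CPM, and IL32 at 4.38 and 53.3 CPM. On the shared scale IL32 held 62.2 CPM in the promoter-guide library and 4.97 to 51.5 CPM in the 4 controls, so it lay above them by less than 2-fold. A treated library of the other sets held 83.9 CPM of IL32. Of NF-kB subunits and feedback genes 2 of 15 (median 0.06) were higher, with the feedback regulator NFKBIZ at 14.5 and 70.4 CPM.

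Interferon effectors were higher in part of the list, from low mock levels. Interferons turn on a set of antiviral genes through transcription factors that bind the interferon-stimulated response element. Of 33 measured effectors 17 were higher and 0 lower, with a median of 1.21, and 16 of the 17 lay beyond all 4 controls. IFI6 stood at 5.01 and 48.7 CPM against 5.00 to 7.82 CPM in controls, IFI27 at 0.535 and 9.11 CPM and the antiviral GTPase MX1 at 0.876 and 8.25 CPM. IFI27 and MX1 were under 1 CPM in the mock library, so they could not be called lower. The RNA sensors OAS1 and OAS3 were not called, at 55.8 and 44.1 CPM and 88.3 and 47.8 CPM. Of induction and signalling genes, 3 of 20 (median 0.14) were higher and 1 lower: IRF7 stood at 2.87 and 8.89 CPM, IRF9 at 9.35 and 22.6 CPM, and the DNA sensor CGAS, the lower one, at 5.11 and 2.13 CPM.

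The response element, GAAA followed after any 2 bases by GAAA, on either strand, is shown for 3 of the higher effectors, in capitals.
IFI6, chr1:27672266-27672295: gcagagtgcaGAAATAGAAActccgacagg
IFI27, chr14:94110631-94110660: cggtttcctgGAAAATGAAAcctatctcat
IFI44, chr1:78649759-78649788: gggcacactgagTTTCAGTTTCctttctct
The element occurred in 3.66% of all windows and in 10 of 15 windows of effectors that were not called (66.7%). For the higher effectors only 12 of 17 had a window (70.6%), which is too few for a share, so the check of this element is void.

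Class I antigen presentation had 6 of 16 members (median 0.78) higher, 5 beyond all 4 controls. B2M, the light chain of all class I molecules, stood at 204 and 500.4 CPM and HLA-B at 14 and 53.2 CPM. HLA genes are near copies of each other, so reads may be split between them. The peptide pump TAP1 stood at 53.6 and 63.3 CPM and was not called. The complement list had 3 of 13 (median 0.35) higher and 1 lower. C3, its central protein, stood at 62.1 and 249 CPM, the complement inhibitor CD59 at 189.7 and 607 CPM and C5, the lower one, at 64.1 and 23.9 CPM. The higher complement members thus included both an activator and an inhibitor.

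Markers of other cell types bear on the groups that follow. The A549 identity genes had 1 of 11 measured members (median -0.49) lower and 0 higher, with ALDH1A1 at 9357 and 12762 CPM, KRT8 at 7198 and 5332 CPM and KRT7 at 3599 and 6239 CPM, and the member called lower was the adhesion molecule EPCAM at 7.35 and 2.22 CPM. Fibroblast markers had 5 of 6 measured of 10 (median 1.64) higher, with a summed level of 12.8 and 37.3 CPM. COL1A1 made up most of it at 9.10 and 25.9 CPM, within its range of 10.3 to 32.8 CPM in the 4 controls. LUM, PDGFRA, THY1 and FAP were the other higher ones, and 2 of the 5 lay beyond all 4 controls. COL1A2, DCN, PDGFRB and POSTN had 3 counts or fewer in each library. Leukocyte markers had 2 of 3 measured of 12 (median 1.21) higher, 0 of them beyond all 4 controls, and summed to 32.1 and 84.5 CPM. Most of that sum was CD68, a lysosomal protein that is not limited to leukocytes, at 27.5 and 80.04 CPM. PTPRC had 0 and 2 counts, and CD3D, CD3E, MS4A1 and AIF1 had 0 in both. Endothelial markers had 0 of 1 measured of 9 (median 0.31) called, at 3.36 and 5.12 CPM in sum. Keratinocyte markers had 4 of 5 measured of 10 (median 2.33) higher and summed to 42.1 and 73 CPM, and KRT1, DSG1, KRTDAP and LORICRIN had 0 counts in both libraries. Markers of HEK293, the kidney line in which lentiviruses are commonly made, had 3 of 7 measured of 10 (median 0.68) higher and 2 lower and summed to 62.7 and 216 CPM, while LIN28A had 0 counts in both. The neurofilament NEFL made up most of that sum, at 47 and 204 CPM. In bulk RNA fewer cells of a type and less RNA per cell cannot be told apart.

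Epithelial genes were called in both directions. Keratins of basal and stratified epithelia had 8 of 9 measured members (median 1.92) higher and 1 lower. KRT5, a keratin of basal cells, stood at 0.535 and 5.58 CPM, KRT14 at 0.438 and 4.85 CPM and their regulator TP63 at 1.02 and 6.17 CPM, all from mock levels close to 1 CPM or under it. KRT5 and KRT14, under 1 CPM in the mock library, were measured only through the promoter-guide library and could not be called lower. The count of higher members is thus in part set by the rule for measured genes. KRT4, a keratin of upper layers, was the lower one at 15.9 and 1.95 CPM. Genes of the cornified envelope and S100 proteins had 6 of 15 (median 0.78) higher and 1 lower. LCE3D of the late cornified envelope stood at 0.584 and 98.2 CPM, 168-fold higher (96.1 to 326), and the scaffold IVL at 0.0487 and 5.71 CPM. LCE3 genes are close copies, so reads may be split between them. Among simple epithelial keratins, 2 of 7 (median 0.34) were higher, with KRT19 at 20.3 and 128 CPM. The keratinocyte markers given above stand beside these values, with 4 of 5 measured members higher and 4 of the 10 at 0 counts in both libraries. KRT5, KRT14 and TP63 are themselves among those markers, and the limit given for KRT5 and KRT14 holds for the marker count too. The part of keratinocyte-type cells in these values was not tested.

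Secretory genes of the airway and gut type were lower in part, and junction genes were called in both directions. The mucin and secreted airway list had 5 of 13 (median -0.64) lower and 3 higher, 4 of the lower ones beyond all 4 controls. MUC5B, the gel mucin of airway glands, stood at 111 and 4.90 CPM, 22.7-fold lower (18.7 to 27.7), against 65.3 to 126 CPM in controls. MUC5AC stood at 7.45 and 0.726 CPM against 8.44 to 222 CPM, and SPDEF, the factor of goblet cells that drives both, at 10.6 and 1.18 CPM. The control lines differed widely in MUC5AC and the promoter-guide library lay below them all. The microvillus protein VIL1 stood at 16.6 and 1.59 CPM, but its control range of 1.37 to 18.8 CPM holds both values. Of adherens junction and desmosome genes 5 of 20 (median 0.13) were higher and 3 lower. CDH1, E-cadherin, stood at 87.3 and 28.7 CPM against 65.5 to 113 CPM in controls, and CDH2, N-cadherin, at 40.2 and 106 CPM. Tight junction proteins had 1 of 17 (median -0.19) higher and 2 lower. Of the factors that drive epithelial to mesenchymal transition 2 of 13 measured (median 0.12) were higher, and ZEB1, a repressor of CDH1, stood at 20.9 and 21.8 CPM without a call.

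Matrix genes were higher in many cases. Of 113 measured matrix genes 61 were higher and 5 lower, and the median was 1.12; 35 of the 61 (57.4%) lay beyond all 4 controls, against 54.3% over all higher genes. Collagens had 15 of 19 (median 1.46) higher and 8 of them beyond all 4 controls. COL4A1 and COL4A2, the chains of basement membranes, stood at 113 and 394 CPM and 245 and 882 CPM, and COL5A1 at 72.3 and 299.6 CPM. With the other controls in place of the mock, 10, 12 and 9 collagens were higher. Laminins, nidogens and glycoproteins had 14 of 28 (median 0.98) higher, 12 of them beyond all 4 controls. The microfibril protein FBN1 stood at 22.1 and 207 CPM. FN1, fibronectin, stood at 752 and 3501 CPM. Its range in the 4 controls was 852 to 2219.6 CPM, so it lay above all of them by less than 2-fold. FBLN1 was lower, at 52.8 and 25.9 CPM. The 2 type IV collagen genes start from 1 shared promoter, as PRR11 and SKA2 do, and had log2 differences of 1.79 and 1.85. Fibroblast markers were higher beside these values, as given above, and their part in them was not tested; the summed fibroblast level in the promoter-guide library was 37.3 CPM and that of the collagen list 3426 CPM.

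Receptors and enzymes of the matrix had higher members as well. Integrins had 8 of 16 (median 1.02) higher, 3 beyond all 4 controls. ITGB3, which pairs with ITGAV to bind vitronectin, stood at 1.27 and 16.1 CPM, and ITGB1, the most widely shared chain, at 1915 and 2468 CPM without a call. The integrin count was 3, 8 and 6 with the other controls in place of the mock. Crosslinking and processing enzymes had 10 of 17 (median 1.27) higher, with the transglutaminase TGM2 at 552 and 2452 CPM and the protease ADAMTS1 at 1.95 and 16.3 CPM, while the collagen chaperone SERPINH1 was not called at 123 and 151 CPM. Metalloproteinases and their inhibitors had 6 of 15 (median 0.92) higher; MMP2, a gelatinase, stood at 4.09 and 40.7 CPM and its inhibitor TIMP1 at 63.8 and 193 CPM. The plasminogen and clotting list split, with 8 of 18 (median -0.01) higher and 3 lower. F3, the tissue factor that starts clotting, stood at 4.62 and 13 CPM, while all 3 fibrinogen chains were lower, FGA at 138 and 40.7 CPM, FGB at 133 and 24.3 CPM and FGG with a log2 difference of -2.18. The 4 controls held 17.1 to 156 CPM of FGA, 11.3 to 151 CPM of FGB and 6.43 to 105 CPM of FGG, so all 3 promoter-guide levels lie within the control ranges. Against CRISPRd_Control in place of the mock the chains were higher, with log2 differences of 1.45 for FGA, 1.29 for FGB and 1.78 for FGG. Contractile genes had 5 of 28 (median 0.30) higher, with TAGLN, a smooth muscle actin binder, at 34.4 and 354 CPM against 31.8 to 43.7 CPM in controls, and TPM1 at 669 and 1995 CPM.

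TGF-beta genes were called in both directions. Ligands and receptors had 8 of 25 (median 0.33) higher and 4 lower. INHBA, the activin A subunit, stood at 1.27 and 24.5 CPM, its sister subunit INHBB at 84.1 and 23.7 CPM, and the receptor TGFBR1 at 38.9 and 123 CPM. The activin subunits thus differed in opposite directions. Targets had 4 of 14 (median 0.07) higher and 2 lower; TGFBI stood at 1462 and 4615 CPM, PMEPA1, a feedback inhibitor, at 159.9 and 677 CPM and the BMP target ID2 at 156 and 62.1 CPM. Targets of YAP and TEAD, the stretch-responsive pair, had 3 of 22 (median 0.02) higher and 1 lower.

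WNT genes were also called in both directions. Of 27 measured members (median -0.14) 4 were higher and 6 lower. Among ligands, WNT7A stood at 0.0974 and 4.81 CPM and WNT7B at 268 and 120.5 CPM. AXIN2, a target of beta-catenin that dampens the pathway, stood at 10.6 and 3.54 CPM, and the ligases RNF43 and ZNRF3, which remove WNT receptors, at 31.8 and 9.30 CPM and 42.6 and 13 CPM. RNF43 is also a neighbour of the silenced promoter, while AXIN2 and ZNRF3 are not within 1 Mb of it. The promoter-guide library lay below the 4 controls for RNF43, whose range was 28.2 to 45.8 CPM. Notch genes had 3 of 15 (median 0.05) higher and 1 lower.

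The lists of other growth factors held higher and lower members. Of the ERBB list 3 of 15 (median -0.36) were higher and 2 lower. The ligands TGFA and HBEGF stood at 18.3 and 58.4 CPM and 10.1 and 33.6 CPM, and the lower members were the ligand AREG, given above, and the receptor ERBB3 at 10.9 and 2.40 CPM. In the PDGF, VEGF, FGF and angiopoietin list 6 of 23 (median 0.43) were higher and 3 lower. PDGFB stood at 2.82 and 16.4 CPM, and the receptors FGFR3 and FGFR4 at 12.3 and 2.00 CPM and 78.2 and 20.3 CPM. In the insulin-like growth factor axis 4 of 15 (median 0.01) were higher and 1 lower, and 0 of the higher ones lay beyond all 4 controls. IGF2 stood at 0.487 and 7.98 CPM and H19, the noncoding RNA beside it, at 5.70 and 0.680 CPM. IGF2 held 0.552 to 19.7 CPM in the 4 controls, so its promoter-guide level was within them. RAS and MAPK feedback genes had 2 of 23 (median 0.10) higher and 1 lower, and AP-1 and immediate early factors 2 of 18 (median -0.27) higher and 3 lower. Over all genes 9.43% were higher and 5.97% lower, so the higher shares of both lists were near that of all genes.

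The PI3K-AKT pathway, which carries growth signals from receptors to AKT and mTOR, showed no called member among its subunits. Of the 13 measured catalytic and regulatory subunits 0 were higher and 0 lower, and the median was 0.04. AKT1 stood at 175 and 179.9 CPM and AKT2 at 236 and 194 CPM. The mTOR complexes and effectors had 1 of 20 (median -0.21) higher and 0 lower. Brakes of the pathway had 3 of 13 (median -0.05) higher and 1 lower: the kinase inhibitor PIK3IP1 stood at 1.56 and 18.5 CPM, 11.9-fold higher (8.28 to 17.6), the phosphatase INPP4B at 13.4 and 50.1 CPM, and the AKT phosphatase PHLPP1, the lower one, at 22.2 and 9.07 CPM. FOXO factors turn on their targets when AKT is low, and 7 of 17 (median 0.91) members of that list were higher and 1 lower. FBXO32, a ubiquitin ligase of muscle wasting, stood at 3.21 and 46.2 CPM and TXNIP at 0.779 and 4.90 CPM, while PDK4 stood at 62.8 and 24.4 CPM. With the other controls in place of the mock, 3, 5 and 8 members were higher. Messages do not report the phosphorylation by which this pathway acts.

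Metabolic lists held 13 higher and 26 lower of 206 measured members, against 9.43% higher and 5.97% lower over all genes. The higher share was thus under that of all genes. NRF2 targets of the antioxidant response had 7 of 41 (median -0.44) lower and 1 higher in an extended list; A549 carries an inactive KEAP1, so that NRF2 is constantly on. NR0B1, a nuclear receptor that depends on NRF2 in such lines, stood at 39.8 and 7.89 CPM and TKT of the pentose phosphate pathway at 1810.0 and 889.7 CPM. Serine, one-carbon and ATF4 genes had 5 of 24 (median -0.54) lower and 1 higher, cholesterol and fatty acid synthesis 3 of 34 (median -0.10) lower and 1 higher. Glycolysis and hypoxia genes had 2 of 29 (median -0.08) higher and 3 lower, with the carbonic anhydrase CA12 at 618 and 266 CPM. Liver and gut type enzymes split evenly at 6 of 25 (median 0.16) in each direction, and DDC, which makes dopamine and serotonin, stood at 16.4 and 0.317 CPM and the urea cycle enzyme CPS1 at 91.6 and 16.3 CPM. Of nuclear-encoded respiratory chain genes 2 of 29 (median -0.41) were lower, including their coactivator PPARGC1A at 9.83 and 1.63 CPM.

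Lysosomal genes had called members as well. Enzymes and membrane proteins of the lysosome had 5 of 26 higher and 1 lower, with a median of 0.55 against -0.04 over all genes. The cholesterol carrier NPC2 stood at 80.1 and 516 CPM, the protease CTSB at 447 and 1625 CPM and the saposin precursor PSAP at 1068 and 2254 CPM. CTSD was not called at 384 and 577 CPM. Autophagy genes had 5 of 17 (median 0.55) higher and 0 lower, among them GABARAPL1 at 35.3 and 123 CPM.

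Lists of the gene expression machinery held 0 higher and 9 lower of 116 measured members, against 9.43% and 5.97% over all genes. The lower ones were all in ribosome biogenesis and splicing, where their share was above that of all genes. Cytosolic ribosomal proteins had 0 of 32 called with a median of -0.06, the proteasome 0 of 24 with -0.41, and mitochondrial messages 0 of 13 (median 0.08). Ribosome biogenesis, the making of ribosomes in the nucleolus, had 5 of 25 lower, and all 25 members were below the mock level, with a median of -0.84. The nucleolar proteins NCL and NPM1 stood at 1455 and 739 CPM and 1800.5 and 963 CPM, just under the size rule, and DDX21 at 325 and 139 CPM. With the other controls in place of the mock, 1, 2 and 2 members were lower. Splicing factors had 4 of 22 lower and a median of -0.73. Mitochondrial genes held 7.41% of the counts of the mock library and 7.84% of the promoter-guide library. Replication-dependent histones, whose messages lack a poly(A) tail and are near copies of each other, had 9 of 18 (median 1.08) higher and 0 lower in a poly(A) library, in the direction opposite to the replication genes. H2AC6 stood at 14.2 and 49.6 CPM and H1-2 at 12.5 and 41.4 CPM. What poly(A) selection contributed to the histone counts was not tested.

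Single genes outside the lists of the cell's own lineage were also called. Placental hormones and glycoproteins had 6 of 8 measured members (median 1.22) higher, with PSG4 at 1.22 and 42.2 CPM. PSG and CGB genes are near copies, so reads may be split. Muscle and membrane repair genes had 4 of 19 (median 0.37) higher and 1 lower, with the membrane repair protein DYSF at 1.36 and 45.4 CPM. Neuronal and vesicle proteins had 5 of 22 (median 0.32) higher and 2 lower, and CPLX2, a regulator of vesicle fusion, stood at 1971 and 267 CPM. Lung and endoderm transcription factors had 2 of 20 (median -0.09) higher and alveolar and airway products 0 of 6 (median 0.60) called. The chemokine receptor CXCR4 stood at 1.12 and 19.7 CPM and the cadherin CDH6 at 0.925 and 26.1 CPM. Long noncoding RNAs had 2 of 22 (median 0.11) higher and 1 lower, with the imprinted MEG3 at 12.5 and 55.9 CPM. The higher shares of the lung and endoderm factors and of the noncoding RNAs were near the 9.43% over all genes.

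**Figure D2:**
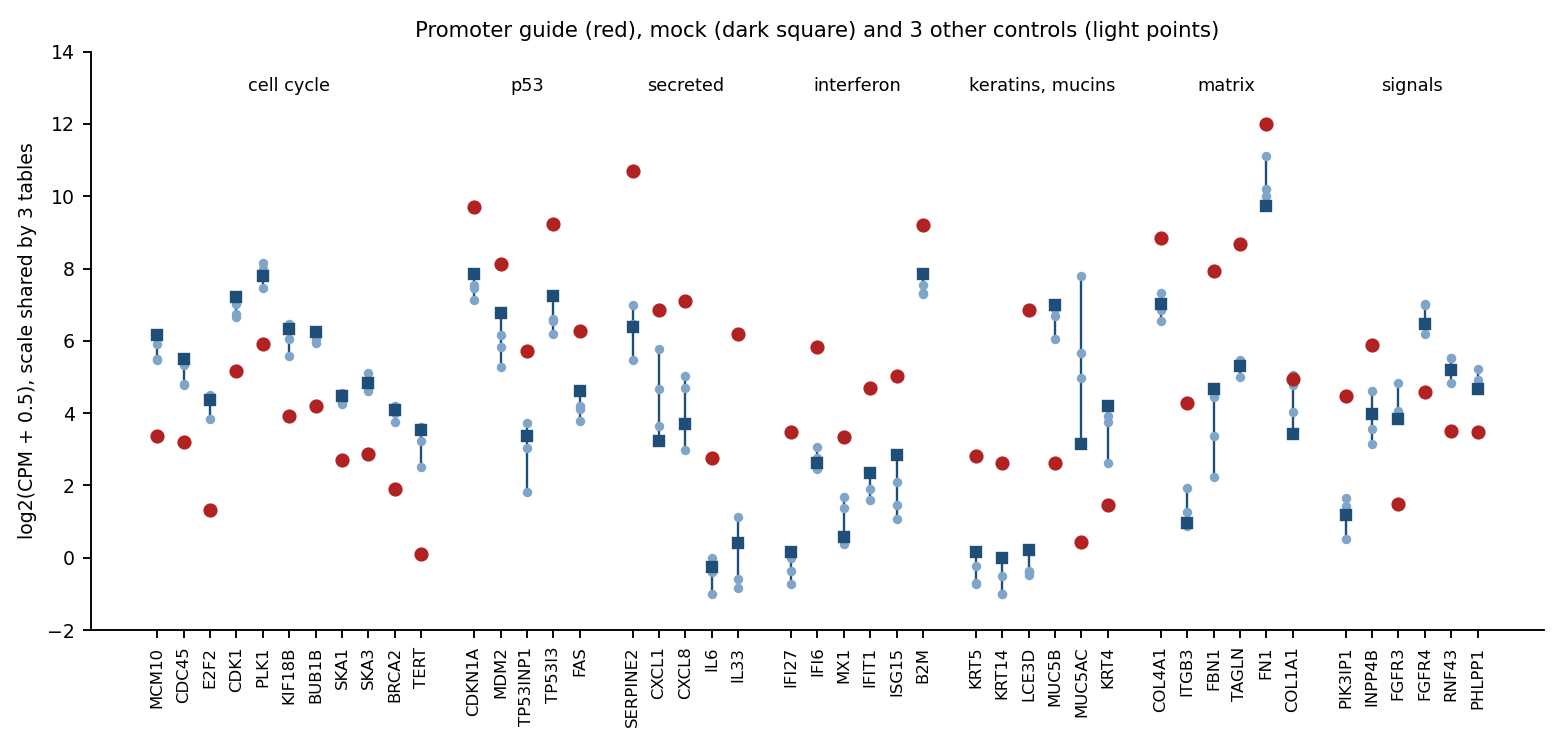
Log2(CPM + 0.5) on the scale shared by the 3 tables for selected genes in the promoter-guide library (red), the mock library (dark square) and the other 3 controls (light points), with a bar over the 4 controls. Red points lie below the bars for the cell cycle genes shown and above them for most p53, secreted, interferon and matrix genes, while COL1A1 lies on its bar, from 10.3 to 32.8 CPM.

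Read gene by gene over the 4 controls, the share of called members that lay beyond all of them differed between lists, against 49.7% over all lower and 54.3% over all higher genes. These counts are a description and the lists were not tested against each other. Among lower mitosis genes listed in all tables, 14 of 16 entry kinases and cyclins lay beyond all 4 controls, 13 of 16 spindle motors and microtubule proteins, 9 of 14 of cohesin and condensin, 14 of 23 of the kinetochore, 9 of 15 of cytokinesis and 5 of 9 of checkpoint and anaphase. For replication the counts were 9 of 12 in origin licensing, 16 of 24 in helicase activation and polymerases and 1 of 8 in nucleotide supply, with 9 of 15 in chaperones and maintenance methylation. Homologous recombination had 16 of 22 and the other repair list 3 of 5, and at the G1 to S step the E2F list had 4 of 4, the G1 cyclins 1 of 4 and the inhibitors 3 of 6. Mitosis and replication genes thus ran from most of a list beyond the controls to 1 member.

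Among lists with higher members, interferon effectors had 16 of 17, class I presentation 5 of 6, p53 targets of arrest 6 of 7, those of death 2 of 4 and secreted factors 12 of 17. In the matrix the laminin list had 12 of 14, collagens 8 of 15, metalloproteinases 4 of 6, crosslinking enzymes 5 of 10, clotting 3 of 8 and integrins 3 of 8, while contractile genes had 4 of 5. Basal and stratified keratins had 7 of 8, the cornified envelope 5 of 5, adherens and desmosome genes 2 of 5 and lower mucin genes 4 of 5. All higher members of the WNT list (4 of 4) and of the list of semaphorins, ephrins and guidance (4 of 4) lay beyond the controls, and 3 of 6 lower WNT members. In the other signal lists the counts were 5 of 8 higher and 2 of 4 lower for TGF-beta ligands and receptors, 3 of 4 for their higher targets, 2 of 6 for the PDGF, VEGF, FGF and angiopoietin list, 0 of 4 for the insulin-like growth factor axis and 3 of 7 for FOXO output. Metabolic lists had 2 of 7 among lower NRF2 targets, 0 of 5 among lower serine and ATF4 genes, and 3 of 6 higher and 4 of 6 lower among liver and gut type enzymes. Lysosomal genes had 4 of 5, autophagy 2 of 5, placental genes 4 of 6, neuronal genes 3 of 5, muscle genes 3 of 4 and histones 4 of 8. Fibroblast markers had 2 of 5 and keratinocyte markers 3 of 4. Ribosome biogenesis (0 of 5) and splicing factors (0 of 4) had no lower member beyond the controls. In the plot of the 4 controls, MUC5AC, CXCL1 and FBN1 had long control bars, and the cell cycle genes short ones.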

How the data were processed

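Poly(A) RNA of 13 A549 libraries was sequenced. RSEM 1.3.3, Bowtie2 2.3.5.1 and the build GRCh38.p13 are named per the submitters' processing notes. Annotation and strandedness: not given in the sources used here. The authors deposited expected counts per gene, not normalised, which were rounded. Of 60852 entries, 181 without a gene name (0.355 and 0.431% of counts) were left out, and entries that share a symbol were summed (76 symbols). Totals were 20932460 counts (mock) and 21811946 counts (promoter guide), where 3 counts are 0.146 and 0.136 CPM; over the 13 libraries totals ran from 18672601 to 21811946.

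Scaling used TMM (trimmed mean of M values; edgeR 4.0.16, R 4.3.3). The size rule used log2 of CPM plus 0.5 and an exact (Clopper-Pearson) 95% interval, which covers counting error only; without molecular identifiers, reads may repeat a molecule. Folds are CPM ratios; log2 values understate changes of low genes. With 1 library a group no p-value was computed. For control levels, 3 tables were scaled over 17291 genes listed in all. The rule was run on simulated counts that held counting error only, so that run does not bear on the spread between lines.

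The members, gene lists and alternatives were chosen with earlier results of these data known. Named genes were the targets and their kinetochore partners, genes within 1 Mb, the 25 higher and 25 lower called genes (5 CPM or more) whose counting bound lay farthest from equality, the 10 of largest CPM difference in each direction, the 10 most abundant, and per list up to 6 called members a direction and 3 that were not called. Some are not reported here. Positions came from GENCODE release 29, sequences from RefSeq (GRCh38.p14). Python 3.11.15, numpy 2.4.6, pandas 2.3.3, scipy 1.17.1 and matplotlib 3.10.9 were used.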

Additional observations from a re-analysis of the deposited data

Results flagged for a closer look

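The entries without a gene name lie outside the comparison of genes. They held 0.431% of the counts in the promoter-guide library (exact 95% interval 0.429 to 0.434%) and 0.355% in the mock library (0.352 to 0.357%), so their share was above that of the control beyond counting error.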

How the results depend on the processing

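No paired analysis was possible because each group is 1 library, and no library could be left out. PRR11, SKA2 and ZNF10 kept their calls under every alternative run. The median over all genes was -0.04, and 0.00, -0.02 and 0.03 by total counts, DESeq2 size factors and upper quartile. Under these 3 scalings higher genes numbered 1477 to 1589 and lower genes 772 to 863, and 188 to 190 of the 192 named genes kept their call. Higher genes, 1415 as reported, were 897 at 5 CPM or more, 836 with a pseudocount of 2, 2762 at 1.5-fold and 269 at 4-fold. Lower genes, 896 as reported, were 2524 at 1.5-fold and 95 at 4-fold. The 2-fold rule thus sets how many genes are named: of 174 counts of list members called in a direction, 109 stayed within 1.5 times at 1.5-fold and 70 at 4-fold.

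The control changed calls as well. With LV-vector-PS, LV-vector-34 or CRISPRd_Control in place of the mock, lower genes were 1476, 1679 and 1652; among higher genes listed throughout, 769, 808 and 809 of 1161 remained called, and of the lower 499, 538 and 536 of 788. Of the same 174 counts, 101, 110 and 110 stayed within 1.5 times. Some named genes changed direction. Against LV-vector-PS the log2 ratio was -0.12 for COL1A1, -1.04 for IGF2 and -0.68 for MAD1L1. For MAD1L1 it was -0.90 against LV-vector-34 and -1.09 against CRISPRd_Control. Against CRISPRd_Control it was 1.45 for FGA, 1.29 for FGB, 1.78 for FGG and 0.33 for VIL1. The cause was not tested. Leaving out symbols held by more than 1 entry, chosen after seeing the data, gave 1417 higher and 894 lower genes. Depth limits genes near 1 CPM, where 20 reads over both libraries decide a ratio.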
